A study of Equus caballus with 17 samples.

Results

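The horse-numbered miRNAs are the mature miRNAs of the horse (Equus caballus) whose names carry a number from the block given to miRNAs named from horse. The rule selects by name, without the miR-8908 names, and keeps the entry with the most reads where a name has several. The block itself was taken up with earlier results of these data known. Of the 274 annotated mature miRNAs in the deposited table, 68 belonged to this block, with numbers running from 8909 to 9185. The libraries came from testis labelled Infant (n = 3), Pre-puber (n = 3), Puber (n = 3) or Adult (n = 4), and from Sperm (n = 4). The labels gave these stages with no treatment or genetic change. Because the labels do not say that the samples of a group are separate animals, each p-value reflects only how these samples differ among themselves, which may be technical. The libraries Infant 31a and 31b share a title number, as do Pre-puber 3a and 3b.

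A miRNA is a short RNA cut from a hairpin precursor. It guides an Argonaute protein to messenger RNAs through pairing at its seed, the bases near its 5′ end, and lowers their translation or stability. Testis is a tissue in which many small RNAs are made, and the onset of meiosis at puberty changes its cell composition, as spermatocytes and spermatids come to outnumber the somatic cells and spermatogonia of the immature organ. Mature sperm carry small RNAs from earlier stages of spermatogenesis while their own genome is largely silent. A miRNA name such as miR-9052 is a serial number and says nothing of sequence or function. The table held no sequence for these miRNAs, so they are described here by name, level and the genes around their precursors, and were not grouped by seed.

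The horse-numbered miRNAs were rare. Together they held 26347 reads of the 97211025 annotated miRNA reads in the 17 libraries, and miR-8909 alone held 64.8% of them. No read was found for 17 of the 68, 22 had 1 to 9 reads, 16 had 10 to 99, 10 had more than that but fewer than 1000, and 3 had at least 1000. These 3 were miR-8909 with 17073 reads, miR-9055 with 2400 and miR-9185 with 2283. Reads occurred in every library for 3 of the 68, which were miR-8951, miR-9055 and miR-9185. Only 16 of the 68 passed the filter on low counts among the testis libraries and only 8 did so among the Adult and Sperm libraries, so 52 and 60 of them, respectively, went untested. Because passing the filter needs reads in at least some group, the tested ones are not a sample of the block.

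Depth differed with the group, from 9.53 to 12.4 M (mega) annotated reads in the Infant libraries and 8.11 to 13.1 M in the Pre-puber ones to 3.96 to 6.04 M in Puber testis, 2.18 to 4.62 M in Adult testis and 1.48 to 2.26 M in sperm. A miRNA without reads could stand at up to 0.242 to 0.315 CPM (counts per M of annotated reads) in the Infant libraries and up to 1.33 to 2.02 CPM in the Sperm libraries, taking 3 reads as the limit, before scaling and for counting error only. All other levels are CPM after TMM scaling, which adjusts for differences in composition between libraries. The known germ cell miRNAs miR-34b-5p, miR-34c, miR-449a and miR-449b (4 of 5 listed names, abundant in meiotic and later germ cells) set the library Pre-puber 14 apart. Their summed level was 3296 CPM there against 45.1 and 80.4 CPM in the libraries 3a and 3b of that stage, 17.6 to 53.1 CPM in the Infant libraries, 11951 to 22808 CPM in Puber and 40216 to 50440 CPM in Adult. In edgeR, 3 of the 4 were called higher in Pre-puber than in Infant, and 4 of the 4 in Adult than in Infant. The stromal names miR-145, miR-199a-5p and miR-199b-5p (3 of 6 listed) summed to 32329 to 51209 CPM in Infant and 14975 to 18816 CPM in Adult. Of these, 2 were called lower in Adult than in Infant, miR-199a-5p (mean 29838 and 9366 CPM) and miR-199b-5p (8068 and 1841 CPM). miR-145 was not called, at 3779 CPM in Infant and 5442 CPM in Adult. The 4 blood cell names in the table, of 7 listed, summed to 1064 to 6508 CPM in Infant and 1061 to 4798 CPM in Adult. Of these 4, 1 was called lower in Adult than in Infant and 0 higher. Mean levels in Infant and Adult were 377 and 84.7 CPM for miR-150, and 427 and 253 CPM for miR-142-5p. For miR-451 they were 276 and 328 CPM, and for miR-486-5p 1861 and 1348.5 CPM. None of the 5 listed epithelial names was in the table. The part of these cell types in the results below was not tested, and in bulk tissue fewer cells of a type and less RNA per cell cannot be told apart.

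At a minimum of 5 reads, more of the horse-numbered miRNAs were detected in Puber and Adult than in Infant and Pre-puber testis, although the older testes were sequenced less deeply. With at least 5 reads taken as detected, 6 were found in each Infant library, 9 to 12 in the Pre-puber libraries, 18 to 19 in those of Puber, 13 to 17 in those of Adult and 7 to 12 in sperm. When every library was thinned to the 1481718 annotated reads of the smallest, the numbers were 3 to 4 in the Infant libraries, 5 to 7 in the Pre-puber libraries, 11 to 14 in those of Puber, 9 to 11 in those of Adult and 7 to 12 in sperm. The Infant, Pre-puber and Puber ranges did not overlap after thinning, while Puber and Adult did. Counted over whole groups, 11 of the 68 had at least 1 read in Infant testis, 40 in Pre-puber testis, 38 in both Puber and Adult testis and 26 in sperm. The order of Pre-puber and Adult depended on the minimum. In the counts as deposited, 20 to 28 and 22 to 29 were found at 1 read, and 7 to 11 and 9 to 11 at 10 reads. Thinning evens out depth but not composition. The same numbers were not counted over all annotated miRNAs, so a rise particular to the block is not shown. These counts are a description and carry no test.

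**Figure D1:**
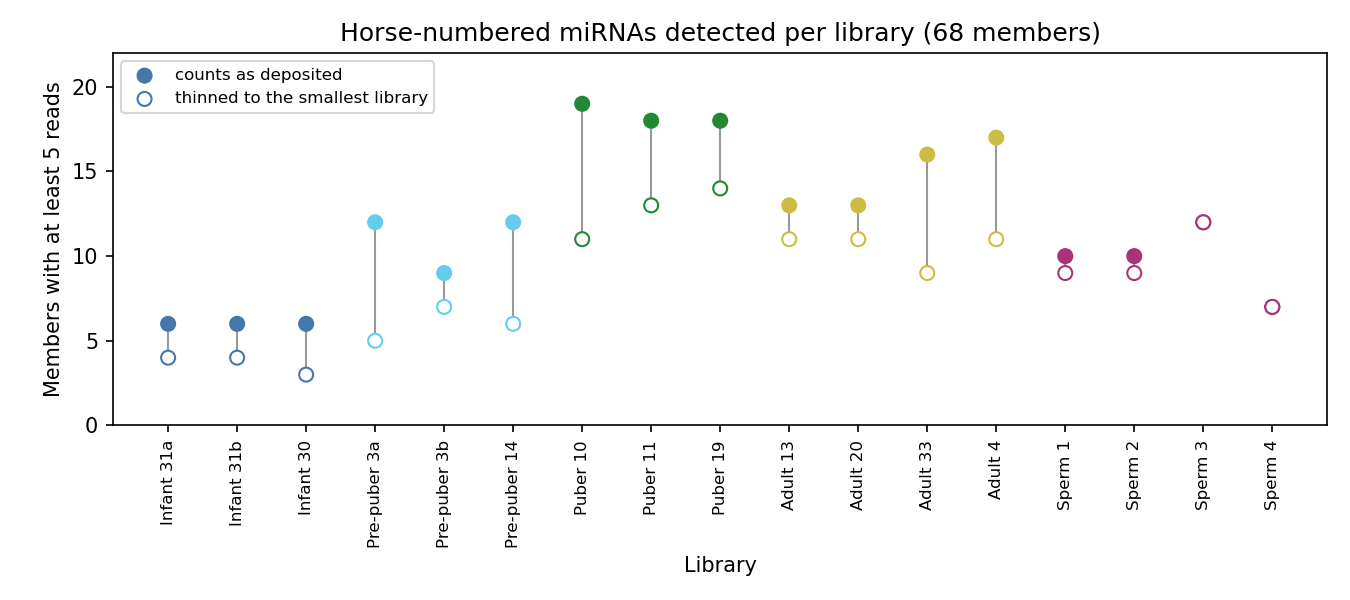
Number of the 68 horse-numbered miRNAs with at least 5 reads (vertical axis) in each of the 17 libraries (horizontal axis, coloured by group), for the counts as deposited (filled) and after thinning every library to the smallest annotated total (open). The 3 Infant libraries hold 6 each, and the Puber libraries hold the most, 18 or 19, in both versions the highest library being a Puber one.

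Their summed share of annotated reads also differed by stage. In ppm (reads per M of annotated reads), it was 36.7 to 48.2 ppm for Infant, 55.2 to 122 ppm for Pre-puber, 184 to 1043 ppm for Puber, 853 to 1136 ppm for Adult and 162 to 282 ppm for sperm. Much of the later share was miR-8909. Without it the share was 36.3 to 48.0 ppm for Infant, 55.2 to 82.6 ppm for Pre-puber, 142 to 203 ppm for Puber, 158 to 176 ppm for Adult and 101 to 174 ppm for sperm. Leaving it out thus brought the Puber and Adult ranges together, and both still lay above every Infant and Pre-puber library.

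Over the 4 testis stages, 11 of the 16 tested horse-numbered miRNAs changed in the edgeR quasi-likelihood test (called at an adjusted p under 0.05 over all tested miRNAs), against 47.8% of all 184 tested miRNAs. They were miR-8909, miR-8921, miR-8971, miR-8993, miR-9049, miR-9052, miR-9054, miR-9086, miR-9149, miR-9150 and miR-9156, and adjusted p ranged from 0.00138 for miR-9052 to 0.0392 for miR-9150. The 5 that did not pass were miR-8951, miR-9055, miR-9154, miR-9174 and miR-9185. The comparison with all miRNAs depended on the filter on low counts: without it, 14 of 49 were called (28.6%), against 39.7% of 237. In the heat map of levels, the 11 do not share 1 course: some have no reads in Infant, Pre-puber 3a and Pre-puber 3b, others are present in every Pre-puber library, and miR-9156 has most of its reads in 3 libraries of 2 stages.

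**Figure D2:**
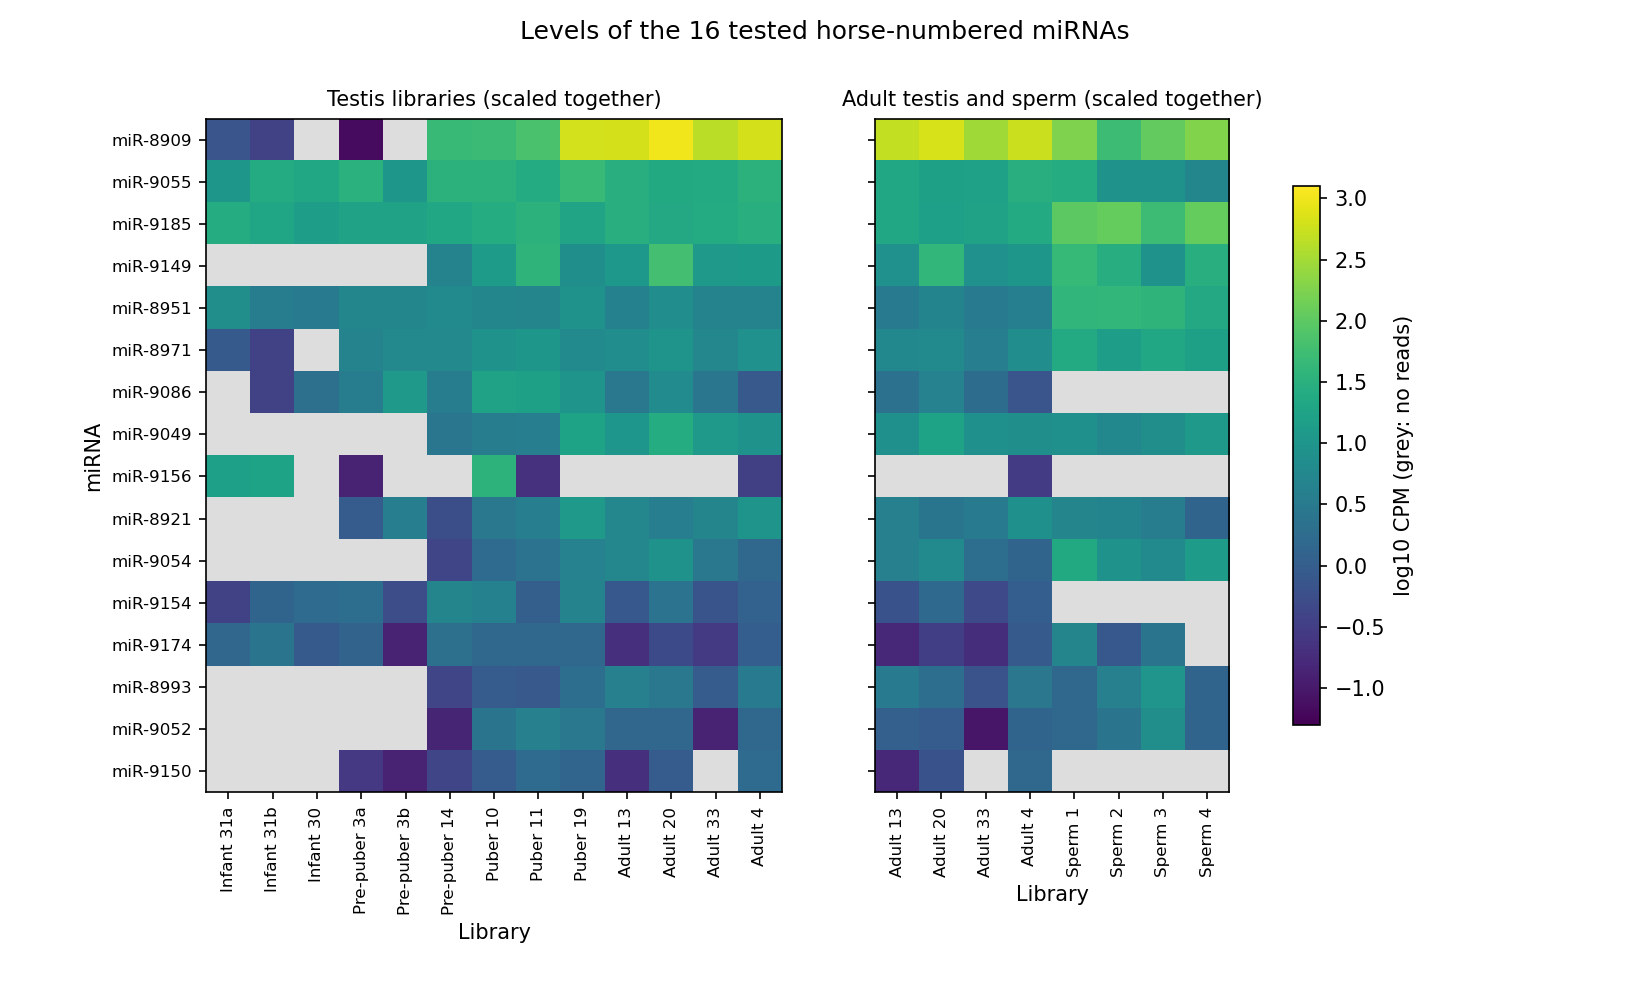
Level of the 16 tested horse-numbered miRNAs (vertical axis, ordered by total reads) in each library (horizontal axis), as log10 CPM by colour with grey for no reads. The left panel holds the 13 testis libraries and the right panel the Adult and Sperm libraries, each scaled on its own, so the levels of the Adult libraries are not the same in both panels. Grey fills the Infant, Pre-puber 3a and Pre-puber 3b cells of miR-9149, miR-9049, miR-9054, miR-8993 and miR-9052, and the Sperm cells of miR-9086, miR-9154, miR-9156 and miR-9150.

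Most of the difference lay between Infant and Adult. In that comparison 9 of the 16 were higher in Adult and 1 was lower, 10 in all, against 51.6% of all tested miRNAs in either direction, 26.1% higher and 25.5% lower. The median log2 fold change was 4.73 over the 16, or 2.56 when miRNAs with no Infant reads were set at their lower bound, and -0.14 over all 184. Those with no Infant reads passed the filter through older stages only. The median over the 16, the higher calls among them and the number without overlap therefore partly reflect the filter. For 8 of the 16, no library of 1 group reached into the range of the other, against 50% of all. The higher ones were miR-8909, miR-8921, miR-8971, miR-8993, miR-9049, miR-9052, miR-9054, miR-9149 and miR-9150, and the lower one was miR-9156. Of these 10, the 7 called under all 14 alternative settings and single-library omissions were miR-8909, miR-8921, miR-8971, miR-8993, miR-9049, miR-9054 and miR-9149. With all predicted hairpins fitted alongside, the split was 9 higher and 5 lower, where 832 of 916 entries (90.8%) were called and the median over them was 5.64. With no filter on low counts, 12 of 49 were called (24.5%), against 40.5% of 237, so the share called stood below that of all miRNAs.

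Neighbouring stages gave fewer calls. From Infant to Pre-puber, 3 of the 16 were higher (miR-8921, miR-8971 and miR-9086) and 1 was lower (miR-9156), against 23.9% of all in either direction, 15.8% higher and 8.15% lower. The groups did not overlap for 4 of the 16, against 35.9% of all. The median over the 16 was 2.82 log2 units, or 0.70 with lower bounds, against 0.16 over all, and it too partly reflects the filter. Leaving out Infant 31a or Infant 31b left 2 calls, miR-8921 and miR-8971. Without scaling beyond the total, the split was 3 higher and 0 lower, beside 41 calls among all 184. With DESeq2 it was 6 and 0, beside 48 calls. With no filter on low counts, 6 of 49 were called (12.2%), against 19.4% of 237.

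From Pre-puber to Puber, miR-9052 alone was called higher, 1 of 16 against 1.09% of all. The groups did not overlap for 8 of the 16, against 26.6% of all, and the median was 2.03 against -0.02. Several of the 16 had few Pre-puber reads and passed the filter through later stages. Both this median and the number without overlap therefore partly reflect the filter. The call of miR-9052 was lost on leaving out Pre-puber 3a, Pre-puber 3b, Puber 10, Puber 11 or Puber 19, with adjusted p of 0.104, 0.13, 0.08, 0.142 and 0.081 in edgeR. Without Pre-puber 14, the library in which germ cell names were high, 6 of 15 tested were called higher: miR-8909, miR-8993, miR-9049, miR-9052, miR-9054 and miR-9149. Calls among all 184 then numbered 30 (16.3%). The Pre-puber libraries left, 3a and 3b, share a title number. Of these 6 miRNAs they held 1 read of miR-8909, in 3a, and no other read. The 6 calls thus follow largely from leaving out the library that held their Pre-puber reads, and are no separate support for a rise.

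From Puber to Adult, edgeR called 0 of the 16 and 0% of all 184. Unadjusted p was under 0.05 for 2 of the 16, miR-9086 and miR-9156, and for 34 of the 184. DESeq2 called 0 of the 16 and 10 of all. The groups did not overlap for 3 of the 16 (miR-9052, miR-9086 and miR-9174), against 23.9% of all, and the median was -0.23 against -0.0027.

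miR-8909 was by far the most abundant of the block in the older testis, ranking 59th of 274 annotated miRNAs in Adult and 177th in Infant. It stood at 0.72, 0.358 and 0 CPM in Infant 31a, 31b and 30, and at 0.0674, 0 and 48.0 CPM in the libraries 3a, 3b and 14 of Pre-puber. The Puber libraries 10, 11 and 19 had 49.7, 67.3 and 636 CPM, and Adult 13, 20, 33 and 4 had 645, 1003, 445 and 659 CPM. Pre-puber 14 therefore lay at the level of Puber 10, with 342 reads against 1 and 0 in the other Pre-puber libraries, and Puber 19 lay among the Adult libraries.

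The mean of miR-8909 was 0.359 ± 0.36 CPM in Infant (SD, n = 3) and 688 ± 232 CPM in Adult (n = 4), a log2 fold change of 10.93 ± 2.42 (SE; edgeR adjusted p = 0.00199). In reads this was 12287 against 7, 1924 times as many after scaling, with an interval of 934 to 4787 for counting error alone. The log2 fold change was 11.75 without Infant 31a and 10.30 without Infant 30. The steps between neighbouring stages did not pass the test as reported: 5.50 ± 2.07 from Infant to Pre-puber (adjusted p = 0.0754), 3.98 ± 1.73 to Puber (0.247) and 1.45 ± 1.49 to Adult (0.592). The first step was called with DESeq2 (adjusted p = 0.025). In edgeR it was called with predicted hairpins alongside (0.011) and without Pre-puber 3a (0.0291) or Pre-puber 3b (0.0338). The second was called in edgeR without Pre-puber 14 (0.000182). The summed germ cell names were 21107 CPM in Puber 19 and 22808 CPM in Puber 11, whose miR-8909 levels were 636 and 67.3 CPM. The precursor of miR-8909 lies within the long non-coding RNA gene LOC138919477, between the protein-coding genes MLN, which encodes the gut hormone motilin, and GRM4, a glutamate receptor.

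A further 5 miRNAs had no read in the 3 Infant libraries or in Pre-puber 3a and 3b, and reads in every later testis library and in every Sperm library: miR-9149, miR-9049, miR-9054, miR-8993 and miR-9052. The number of reads in Pre-puber 14 was 33, 19, 3, 3 and 1, respectively. Each was higher in Adult than in Infant, and because Infant had no reads the folds are lower bounds that place 3 reads over the Infant group.

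miR-9149 was at 4.63 CPM in Pre-puber 14, at 13.1, 36.5 and 7.84 CPM in Puber 10, 11 and 19, and at 10.9, 60.4, 12.2 and 12.3 CPM in Adult 13, 20, 33 and 4. Adult 20 stood above the other Adult libraries and Puber overlapped Adult. Adult was at least 124-fold higher than Infant, from 339 reads against 0 (edgeR adjusted p = 0.0041). The fitted log2 fold change was 10.29, or 9.37 without Adult 20. Its precursor lies within LOC100069269, between MTHFD2, a mitochondrial folate enzyme, and MOB1A, a co-activator of Hippo pathway kinases.

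miR-9049 was at 2.67 CPM in Pre-puber 14, at 3.66, 3.88 and 17.8 CPM in Puber 10, 11 and 19, and at 10.3, 26.4, 11.8 and 9.06 CPM in the Adult libraries in the same order. Puber 19 was again the Puber library at the Adult level. Adult was at least 88.8-fold higher than Infant (243 reads against 0, adjusted p = 0.00276). Its precursor lies in no annotated protein-coding or long non-coding RNA gene. It sits between PLA2G12B, a secreted phospholipase family member, and P4HA1, a subunit of the collagen prolyl hydroxylase.

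miR-9054 was lower in level, at 0.421 CPM in Pre-puber 14, 1.73, 2.37 and 4.40 CPM in Puber 10, 11 and 19, and 5.37, 9.11, 2.91 and 1.54 CPM in Adult 13, 20, 33 and 4. The Puber libraries lay within the Adult range. Adult was at least 27.4-fold higher than Infant (75 reads against 0, adjusted p = 0.00123). Its precursor lies outside annotated protein-coding and long non-coding RNA genes, between ST8SIA2, a polysialic acid synthase, and FAM174B.

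miR-8993 was at 0.421 CPM in Pre-puber 14, 0.963, 0.863 and 1.91 CPM in the Puber libraries and 4.13, 2.88, 0.969 and 3.25 CPM in the Adult ones. Adult 33 lay within the Puber range and the other Adult libraries lay above it. Adult was at least 19.0-fold higher than Infant (52 reads against 0, adjusted p = 0.00182). The table listed it under 2 precursors, with 83 and 90 reads.

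miR-9052 had its highest testis level in Puber rather than Adult. It was at 0.14 CPM in Pre-puber 14 (1 read), 2.50, 4.10 and 2.87 CPM in Puber 10, 11 and 19, and 1.44, 1.44, 0.138 and 1.54 CPM in Adult 13, 20, 33 and 4. No Adult library reached a Puber one, but the difference between those stages did not pass the test (log2 -1.52 ± 0.77, adjusted p = 0.311). Puber held 47 reads against 1 in Pre-puber, 91.6 times as many after scaling, with an interval of 15.7 to 3694 for counting error alone (adjusted p = 0.0285), and the fitted log2 difference of 5.85 was 7.40 without Pre-puber 14, 5.16 without Pre-puber 3a. Adult was at least 7.31-fold higher than Infant (20 reads against 0, adjusted p = 0.00508). Its 2 precursors lie in the long non-coding RNA genes LOC138923438 and LOC138923459, between IDE and MARCHF5 and between HTR7 and KIF20B.

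**Figure D3:**
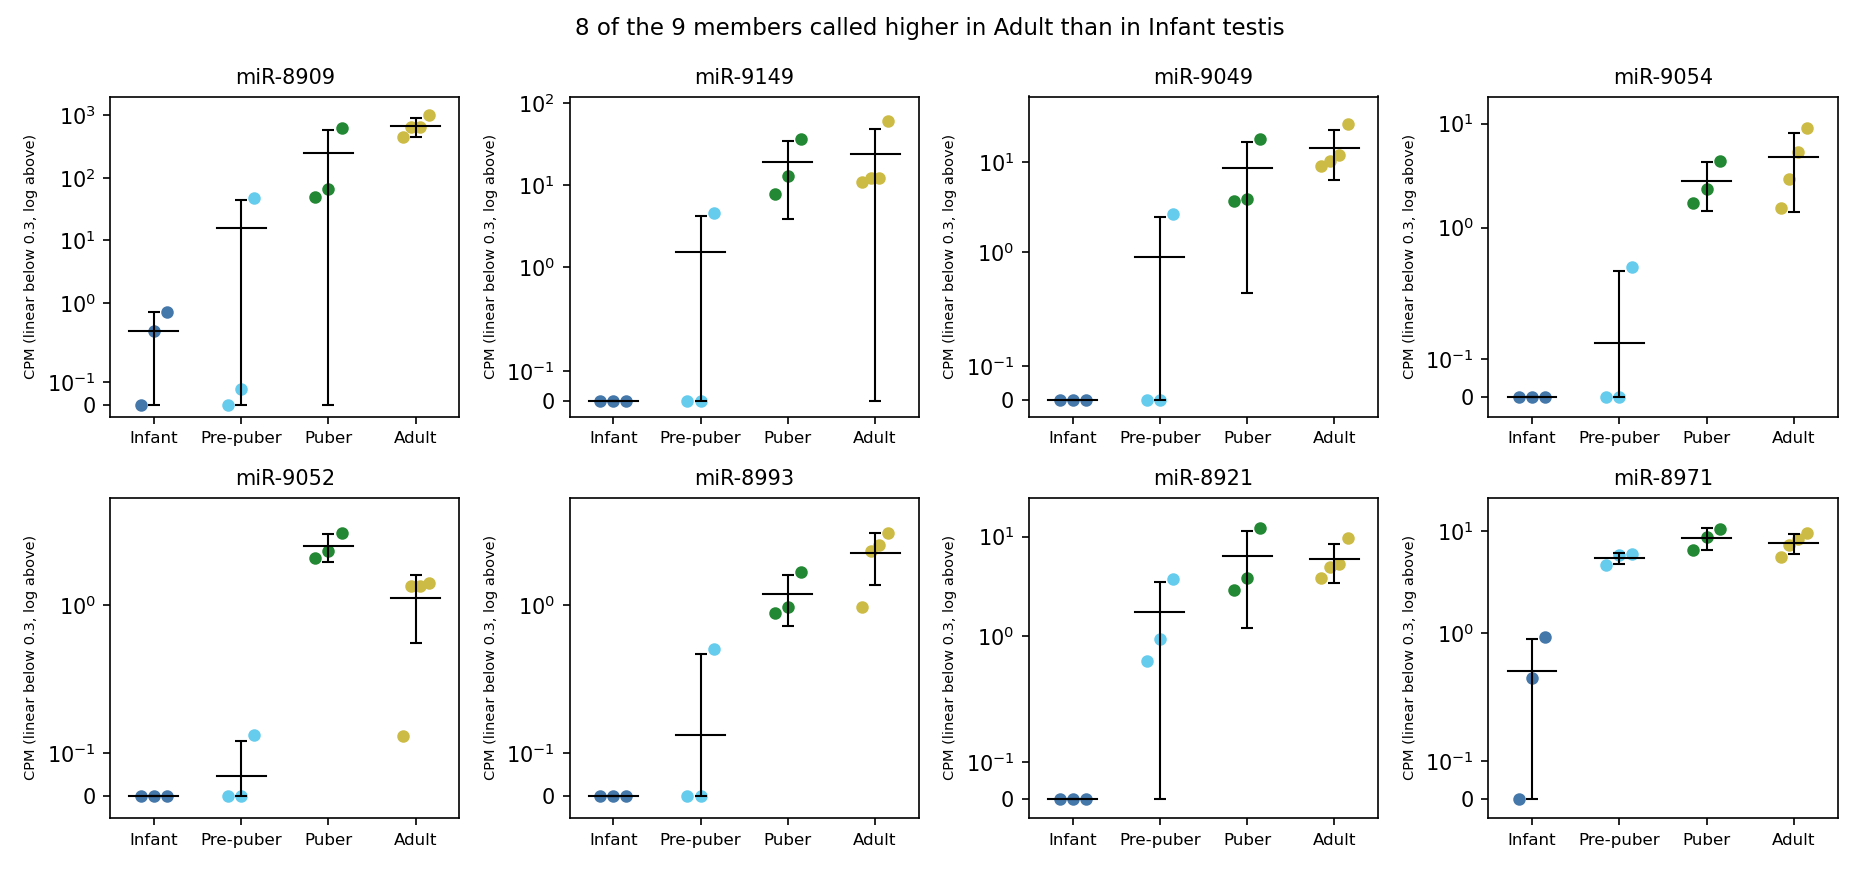
Level (CPM, linear below 0.3 and logarithmic above, with a separate range in each panel) of 8 of the 9 horse-numbered miRNAs called higher in Adult than in Infant testis, by stage. Points are libraries in order of value, wide lines are means and bars are SD, drawn no lower than 0. miR-9149, miR-9049, miR-9054, miR-9052 and miR-8993 show 0 CPM in all libraries of Infant and in all but 1 of Pre-puber, while miR-8971 has all 3 Pre-puber libraries above Infant.

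Another 4 had reads in every Pre-puber library, including 3a and 3b. Germ cell names summed to 45.1 and 80.4 CPM there, against 17.6 to 53.1 CPM in Infant and 3296 CPM in Pre-puber 14. miR-8971 was at 0.901, 0.358 and 0 CPM in Infant 31a, 31b and 30 and at 4.65, 5.82 and 5.89 CPM in the Pre-puber libraries 3a, 3b and 14. It was then at 8.66, 10.6 and 6.50 CPM in Puber 10, 11 and 19 and 7.22, 9.59, 5.54 and 8.38 CPM in the Adult libraries. The Infant libraries lay below all others, Pre-puber lay below Puber, and Puber overlapped Adult. From Infant to Pre-puber it rose by 3.74 ± 0.73 log2 units (SE; edgeR adjusted p = 0.00308), and from Infant to Adult by 4.23 ± 0.72 (adjusted p = 0.000329). The first value was 4.78 without Infant 31a and 3.12 without Infant 30, and the second 5.26 and 3.60. Later steps did not pass the test. Its precursor lies within SLC35D1, a nucleotide sugar transporter.

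miR-8921 had no Infant reads. It was at 0.944, 3.79 and 0.561 CPM in the Pre-puber libraries 3a, 3b and 14, 2.89, 3.88 and 12.2 CPM in Puber 10, 11 and 19, and 5.37, 3.84, 4.99 and 9.57 CPM in the Adult libraries. Pre-puber 3b lay within the Puber range, so those stages overlapped, as did Puber and Adult. Pre-puber was at least 11.5-fold higher than Infant (46 reads against 0, adjusted p = 0.00853) and Adult at least 46.0-fold higher (126 reads against 0, adjusted p = 0.000409). The fitted log2 fold change from Infant to Pre-puber was 6.55, or 5.39 without Pre-puber 3b. The table listed it under 3 precursors with the same 286 reads each, and all 3 lie within unnamed protein-coding genes, LOC111775994, LOC138916648 and LOC111772089.

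miR-9086 had its highest mean in Puber, though neither the step into Puber nor the step out of it passed the test as reported. It was at 0, 0.358 and 2.13 CPM in Infant 31a, 31b and 30, 3.71, 11.9 and 3.65 CPM in the Pre-puber libraries 3a, 3b and 14, 17.5, 15.97 and 9.37 CPM in Puber 10, 11 and 19, and 2.89, 6.72, 2.63 and 0.855 CPM in the Adult libraries. All Pre-puber libraries lay above Infant and all Adult libraries lay below Puber, while Pre-puber 3b lay within the Puber range. The Pre-puber to Puber difference was 1.16 ± 0.87 log2 units (edgeR adjusted p = 0.542). From Infant to Pre-puber it rose by 2.87 ± 0.97 log2 units (adjusted p = 0.0492). This call was lost without Infant 31a, Infant 31b or Pre-puber 3b (adjusted p of 0.105, 0.152 and 0.134). It was also lost with libraries sharing a title number summed (0.159) and with only the 2 groups fitted (0.176), and the log2 fold change was 4.82 without Infant 30. The Puber to Adult difference of -2.21 ± 0.85 did not pass (adjusted p = 0.165), except in a fit of those 2 groups alone. The precursor lies within PPP1R12C, a regulatory subunit of myosin phosphatase.

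miR-9150 was the rarest of the called miRNAs, with 41 reads in all. It was at 0 CPM in Infant, 0.27, 0.135 and 0.421 CPM in the Pre-puber libraries 3a, 3b and 14, 0.963, 1.73 and 1.34 CPM in Puber 10, 11 and 19, and 0.206, 0.959, 0 and 1.71 CPM in Adult 13, 20, 33 and 4. Adult spanned both lower stages. Adult was at least 4.75-fold higher than Infant (13 reads against 0, adjusted p = 0.0242). It was not tested against Infant when any Infant library or Adult 4 was left out, since it then fell under the filter on low counts. Its call over the testis stages was lost in 11 of the 13 omissions of a single library, all but those of Adult 13 and Adult 33, and with libraries sharing a title number summed. Its precursor lies within the long non-coding RNA gene LOC106781152.

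miR-8951, miR-9055 and miR-9185 had reads in every library and no testis comparison of them passed the test as reported. miR-9185 was at 26.3, 19.2 and 14.0 CPM in Infant 31a, 31b and 30, 16.9, 16.9 and 21.0 CPM in Pre-puber, 27.0, 34.1 and 18.9 CPM in Puber and 28.3, 22.5, 25.5 and 28.4 CPM in Adult. All stages but Pre-puber and Adult overlapped. The Adult against Infant log2 difference was 0.40 ± 0.33 (adjusted p = 0.313). The direction depended on the scaling. Without scaling beyond the library total it was called higher (log2 1.41, adjusted p = 0.00476), where the median over all 184 miRNAs was 0.82. With predicted hairpins fitted alongside it was called lower (log2 -1.40, adjusted p = 0.0426), where the median over all was 5.64. Its precursor lies between HOXD1 and MTX2, beside the HOXD cluster of developmental transcription factors.

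miR-9055 was at 10.6, 25.5 and 21.9 CPM in Infant, 32.4, 10.8 and 33.8 CPM in the Pre-puber libraries 3a, 3b and 14, 33.3, 25.2 and 46.7 CPM in Puber and 28.3, 23.5, 24.1 and 33.7 CPM in Adult. Infant 31a and Pre-puber 3b were low and the stages overlapped. The Adult against Infant difference was 0.50 ± 0.44 (adjusted p = 0.355). It too was called higher without scaling beyond the total (log2 1.41, adjusted p = 0.0432). Its precursor lies within CRTC3, a co-activator of the transcription factor CREB.

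miR-8951 was at 7.56, 3.46 and 3.25 CPM in Infant 31a, 31b and 30, 5.19, 5.28 and 6.03 CPM in Pre-puber, 5.20, 4.96 and 8.60 CPM in Puber and 4.33, 7.19, 4.71 and 4.62 CPM in Adult. The stages overlapped, and the Adult against Infant difference was 0.12 ± 0.43 (adjusted p = 0.828). Its precursor lies within ABHD17B, which encodes a depalmitoylating enzyme. The rarer miR-9154 (168 reads, within LPIN1, a phosphatidate phosphatase) and miR-9174 (114 reads, between SETD2 and NRADD) did not pass in any testis comparison as reported. With predicted hairpins fitted alongside, miR-8951, miR-9154 and miR-9174 were called lower in Adult than in Infant, by log2 -1.54, -1.87 and -3.57.

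miR-9156 was the only one of the 16 called lower at an older stage, and it rested on few libraries. It had 84 and 151 reads in Infant 31a and 31b (15.1 and 18.0 CPM) and 185 reads in Puber 10 (35.6 CPM). All other testis libraries had 2 reads or fewer, Infant 30 among them with 0, and Sperm had none. The 2 Infant libraries with reads share a title number. Pre-puber was lower than Infant by a fitted log2 of -7.08 ± 2.35 (2 reads against 235, edgeR adjusted p = 0.045) and Adult by -6.55 ± 2.17 (2 reads against 235, adjusted p = 0.0238), though Infant 30 overlapped both groups. The Pre-puber call was lost on leaving out any library of those groups but Infant 30, with log2 from -9.06 (without Pre-puber 3a) to -6.52 (without Infant 31b) and -7.66 without Infant 30. The Adult call was lost without Infant 31a, Infant 31b, Adult 13 or Adult 33, with log2 of -9.56 without Adult 4, which kept the call, and -7.14 without Infant 30. It was also lost in both comparisons when libraries sharing a title number were summed and with DESeq2. The precursor lies within CCDC69, which encodes a coiled-coil protein.

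In sperm, 8 horse-numbered miRNAs could be tested against Adult testis, and 5 of the 8 differed, against 81.5% of all 162 tested miRNAs. Of them, miR-8951, miR-8971, miR-9054 and miR-9185 were higher in sperm and miR-8909 was lower, against 42% of all higher and 39.5% lower. The groups did not overlap for these 5, against 74.7% of all. The median log2 fold change was 1.24 over the 8 and 0.06 over all. The filter left out another 8 that were tested in testis. Among these, miR-9086, miR-9150 and miR-9154 had Adult reads and none in Sperm, while miR-8993, miR-9052 and miR-9174 stood higher in sperm by scaled reads. The median therefore holds for the 8 tested and not for the block. The higher calls depended on the scaling: without scaling beyond the library total, the split was 1 higher and 3 lower, and the median over all miRNAs was -1.61. It was 4 higher and 2 lower with DESeq2 size factors in edgeR, 4 and 3 with DESeq2, and 2 and 3 when predicted hairpins were fitted alongside. With all 17 libraries fitted together, 14 were tested, of which miR-8951 and miR-9185 were higher and miR-9055, miR-9086 and miR-9154 lower. With no filter on low counts, 8 were higher and 2 lower of 42 tested, 23.8% against 65.7% of all. The higher calls gained, miR-8937, miR-8989, miR-9135 and miR-9174, rested on only 4, 6, 3 and 10 Sperm reads. The lower call gained was miR-9086, with 52 Adult reads and 0 in Sperm. miR-8951 was called higher under all 14 alternative settings and single-library omissions.

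Adult and sperm libraries were scaled together here, so the Adult levels differ from those above. The summed germ cell names were 28819 to 38940 CPM in Adult and 105390 to 360110 CPM in Sperm, and the 3 stromal names 10092 to 14698 CPM and 65.8 to 152 CPM. The single endothelial name in the table, miR-126-5p, was at 215 to 471 CPM and 38.2 to 52.9 CPM. The 4 blood cell names went another way, summing to 728 to 3256 CPM in Adult and 1466 to 3717 CPM in Sperm. Of the 4, 1 was called higher in Sperm and 0 lower. Mean levels in Adult and Sperm were 229 and 1486 CPM for miR-451, but 61.5 and 32.8 CPM for miR-150. RNA preparation also differed between testis and sperm, and cannot be told apart from the difference between them.

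miR-8951 was at 3.35, 4.85, 3.20 and 3.98 CPM in Adult 13, 20, 33 and 4 and at 38.7, 40.9, 37.0 and 22.5 CPM in Sperm 1 to 4. Every sperm library lay above every Adult one. The log2 fold change was 3.19 ± 0.52 (SE; edgeR adjusted p = 1.54e-07) and ranged from 1.58 (no scaling beyond the total) to 3.37 over the alternatives. It ranked 95th of 274 in sperm.

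miR-9185 was at 21.8, 15.2, 17.3 and 24.5 CPM in the Adult libraries and 99.4, 116, 53.0 and 114 CPM in Sperm 1 to 4. Sperm 3 was the lowest sperm library and still lay above Adult. The log2 fold change was 2.28 ± 0.52 (adjusted p = 8.37e-05), and 0.63 without scaling beyond the total (adjusted p = 0.227). miR-9185 was the second most abundant of the block in sperm, ranking 82nd of 274, next to miR-8909 at 76th.

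miR-9054 was at 4.14, 6.14, 1.97 and 1.33 CPM in Adult and 23.4, 8.99, 6.16 and 13.2 CPM in Sperm. Sperm 3 (5 reads) and Adult 20 (19 reads) nearly met. The log2 fold change of 2.01 ± 0.52 (adjusted p = 0.000444) was 0.42 without scaling beyond the total (adjusted p = 0.472). The fit with all 17 libraries did not call it either (adjusted p = 0.126), nor did the fit with predicted hairpins.

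miR-8971 was at 5.58, 6.46, 3.76 and 7.23 CPM in Adult and 24.1, 14.7, 22.2 and 15.9 CPM in Sperm, with no overlap. The log2 fold change was 1.75 ± 0.49 (adjusted p = 0.000916). It was 0.14 without scaling beyond the total (adjusted p = 0.767) and was not called with all 17 libraries (0.0624) or with predicted hairpins.

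miR-8909 went the other way, at 498, 676, 302 and 569 CPM in Adult and 178, 52.3, 111 and 188 CPM in Sperm. Every sperm library lay below every Adult one, and miR-8909 still had the highest mean of the block in sperm, 132 ± 63.4 CPM (SD, n = 4). It fell by 1.95 ± 0.51 log2 units (adjusted p = 0.000459) and by 3.57 without scaling beyond the total. It was not called in the fit of all 17 libraries (adjusted p = 0.0625).

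**Figure D4:**
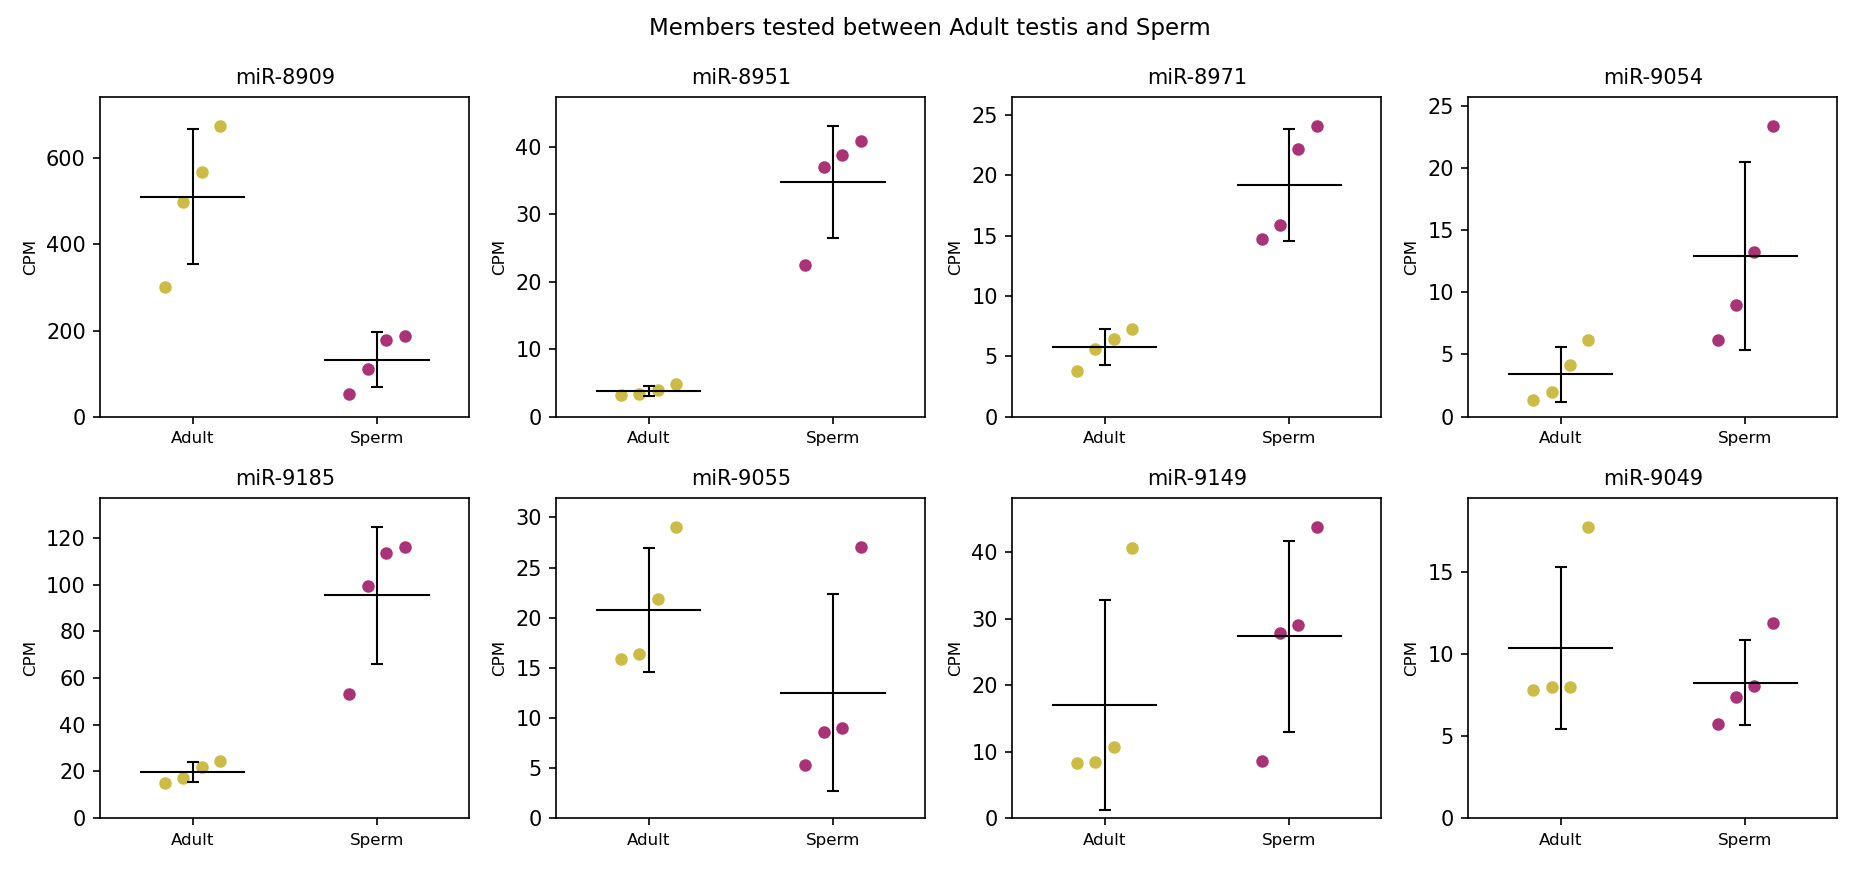
Level (CPM, linear from 0, separate range in each panel) of the 8 horse-numbered miRNAs tested between Adult testis and Sperm, 4 libraries each, scaled together. Points are libraries in order of value, wide lines are means and bars are SD. The groups do not overlap for miR-8909, miR-8951, miR-8971, miR-9054 and miR-9185 and overlap for miR-9055, miR-9149 and miR-9049.

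The other 3 did not pass. miR-9149 was at 8.44, 40.7, 8.27 and 10.6 CPM in Adult and 43.9, 27.8, 8.62 and 29.1 CPM in Sperm (log2 0.72 ± 0.54, adjusted p = 0.203). Adult 20 and Sperm 3 each lay at the level of the other group. miR-9049 was at 7.97, 17.8, 7.99 and 7.82 CPM in Adult and 8.04, 5.72, 7.39 and 11.9 CPM in Sperm (log2 -0.33 ± 0.50, adjusted p = 0.528). miR-9055 was at 21.8, 15.8, 16.4 and 29.1 CPM in Adult and 27.0, 8.99, 8.62 and 5.29 CPM in Sperm (log2 -0.69 ± 0.51, adjusted p = 0.205), with Sperm 1 alone at the Adult level. miR-9049 was called lower in sperm with no scaling beyond the total (log2 -1.94), DESeq2 (-0.98) and predicted hairpins alongside (-1.52). miR-9055 was called lower in sperm with DESeq2 size factors, DESeq2, no scaling beyond the total, predicted hairpins alongside, and all 17 libraries.

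**Figure D5:**
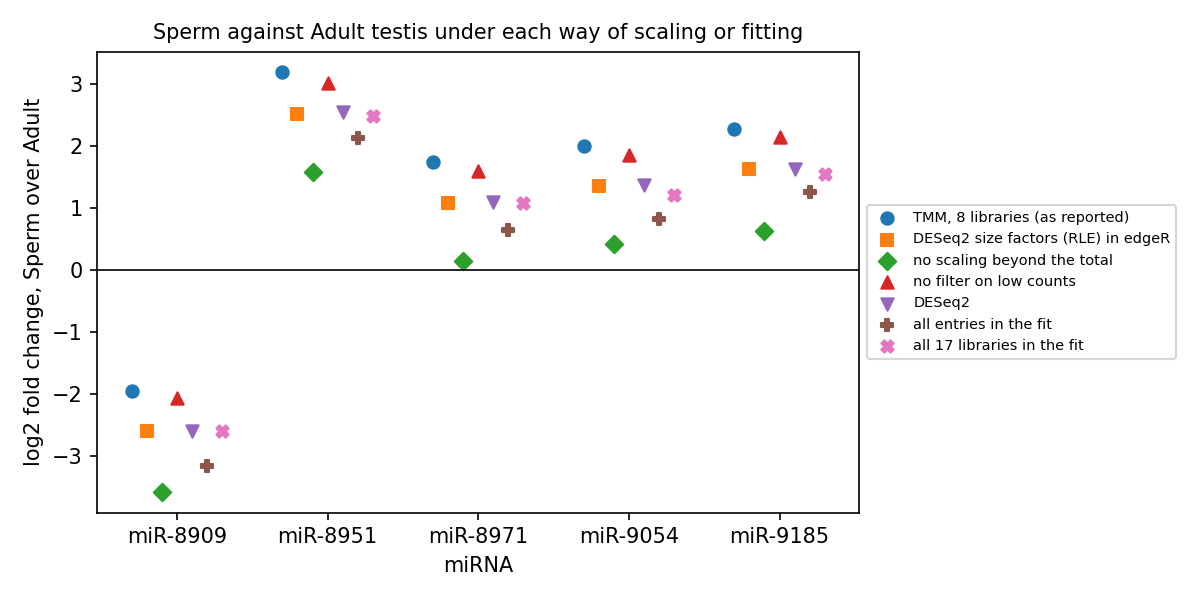
Log2 fold change of Sperm over Adult (vertical axis) for the 5 called horse-numbered miRNAs (horizontal axis) as reported and under 6 other ways of scaling, filtering or fitting (markers). All values keep their sign, and those without scaling beyond the library total lie lowest, at 0.14 for miR-8971 and 1.58 for miR-8951.

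No read in sperm was found for 4 of the miRNAs tested in testis: miR-9086, miR-9150, miR-9154 and miR-9156. The 52 reads of miR-9086 in Adult against 0 in Sperm make it at least 2.69-fold lower in sperm. For miR-9154 (21 Adult reads) the bound is 1.09-fold, and for miR-9150 (13 Adult reads) the depth of the sperm libraries could not show a difference. The 4 remaining miRNAs tested in testis only, miR-8921, miR-8993, miR-9052 and miR-9174, had 17, 16, 12 and 10 reads in Sperm.

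The 52 untested miRNAs carried little, 13 of them with 10 to 58 reads over the 17 libraries. miR-8938 had 58 reads, 29 in Pre-puber 3a, 21 in Pre-puber 3b, 8 in the Puber libraries and 0 in Infant, Pre-puber 14, Adult and Sperm. miR-8929 had 37 reads, 23 of them in Pre-puber 3a and 4 in Pre-puber 3b. These 2 libraries share a title number. In reads, Pre-puber was at least 12.5-fold higher than Infant for miR-8938 and at least 6.97-fold higher for miR-8929. Both were called higher when the filter on low counts was dropped.

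The remaining 11 of these were miR-8998 with 58 reads, miR-8945 with 40, miR-9118 with 36, miR-9098 with 22, miR-8943 with 20, miR-9051 with 19, miR-9023 with 18, miR-8996 and miR-9184 with 15 each, miR-8937 with 11 and miR-9000 with 10. Infant had no reads for any of them but miR-8998, which had 2. miR-9023 and miR-9051 had reads in Puber and Adult only, 6 and 12 for the former and 7 and 12 for the latter.

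By position in the RefSeq annotation of a newer horse assembly, the 68 miRNAs had 79 precursor names in the table, of which 74 were matched and 70 placed. Of the placed precursors, 49 (70.0%) lay within a protein-coding gene, 8 within a long non-coding RNA gene only and 13 in neither. Among the other annotated miRNAs, 59.0% of 222 precursors lay within a protein-coding gene. For those tested in testis the share was 57.9% of 19. These shares are descriptions without a test. The host genes themselves were not measured here. Among the 11 named miRNAs with at least 20 reads in 3 or more libraries, none had a predicted hairpin elsewhere in the table whose counts stayed within 10% of its own in every such library, a check for reads entered in the table more than once.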

How the data were processed

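Small RNA was sequenced from 13 horse testis and 4 sperm libraries. Per the labels' protocols, RNA was isolated with TRIzol, with DNase treatment and purification that differed between testis and sperm. Per the submitters' processing notes, Trimmomatic was used and the genome build was EquCab3.0. The aligner, counter and annotation release are not given in the sources used here. In all, the authors deposited 1 table of 1763 entries, 302 annotated and 1461 predicted hairpins. The deposited counts were whole reads. The deposited RPM values equalled count over column total and were not used further. Columns were matched by title number, and the 2 columns numbered 4 by the prefix the sperm columns share.

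The entry with the highest total was kept for each of 274 mature names. Counts were fitted over all annotated miRNAs with edgeR 4.0.16 in R 4.3.3 (filterByExpr by group, TMM, quasi-likelihood F test, Benjamini-Hochberg adjusted p under 0.05). One fit held the 13 testis libraries (184 tested), another the 8 Adult and Sperm libraries (162 tested). Levels are CPM of annotated counts after TMM, scaled separately in each fit. Standard errors are approximate, taken as the log2 fold change over the root of F. Counting intervals are exact at 95%. The scripts were tested on simulated data. Alternatives were DESeq2 1.42.0, other scalings, filters, entries and sample sets, and leaving out each library.

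The text names those with a group mean of at least 10 CPM or an adjusted p under 0.05, and others by reads. The miRNAs and marker lists were chosen with earlier results of these data known. A planned grouping by shared seed was not made, because no mature sequences were held. Precursor names were matched to RefSeq annotation of assembly TB-T2T for neighbouring genes only, without coordinates. A precursor counted as within a protein-coding or long non-coding RNA gene at any overlap, on either strand, and other gene types were not considered.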

Additional observations from a re-analysis of the deposited data

Results flagged for a closer look

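Within groups of 4 libraries, 25 sets of levels (each of the named miRNAs in Adult or Sperm) were searched for a library far from the rest, by the gap to its nearest neighbour over the whole range (Dixon's 95% limit), and 6 had one. The limit assumes independent, normally distributed values, and many of these levels rest on few reads and share libraries. No chance rate is therefore set against these 6. Adult 20 was the highest of the Adult libraries for 3 of them: miR-9149 at 60.4 CPM against 12.3 CPM in the nearest library, miR-9049 at 26.4 against 11.8 CPM, and miR-8951 at 7.19 against 4.71 CPM, from 126, 55 and 15 reads. Adult 20 had the smallest total of the Adult libraries, 2178789 annotated reads. In Adult 33, miR-9052 was at 0.138 CPM, from 1 read, against 1.44 CPM in the nearest library. In Sperm 1, miR-9055 was at 27.0 CPM against 8.99 CPM, from 37 reads. In Adult 4, miR-9156 was at 0.342 CPM, from 2 reads, where the other Adult libraries had 0.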

How the results depend on the processing

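Of 265 values of single miRNAs under alternative settings, covering 20 differences, 231 kept their direction and call, 34 kept the direction without the call and 0 reversed. Settings in which a miRNA fell under the filter were not counted. Thus miR-9150 in Adult against Infant had 8 values, where miR-8909 had 14. From Infant to Pre-puber, 4 calls became 8 with all entries in the fit, 2 with libraries sharing a title number summed, 1 with only the 2 groups fitted (where 7 of the miRNAs were tested), and 2 to 5 on leaving out a library. From Pre-puber to Puber, 1 call became 2 with DESeq2 size factors, 2 without scaling, 3 with DESeq2, 0 with summed libraries, 0 with only the 2 groups, and 0 to 6 on leaving out a library. From Puber to Adult, 0 became 1 with only the 2 groups. Leaving out a library gave 9 to 11 calls over the stages, 8 to 11 for Adult against Infant and 5 to 6 for Sperm against Adult, which became 10 of 42 with no filter. Some counts over all miRNAs also moved by over 1.5 times. For Infant to Pre-puber, 44 became 606 of 916 with all entries, 29 summed and 26 with 2 groups. For Pre-puber to Puber, 2 became 0 to 30, or 198 of 916 with all entries. For Puber to Adult, 0 became 19 with 2 groups, 10 with DESeq2, 7 without Puber 19 or Adult 20, and 1 without scaling. With all entries, counts were 855 of 916 over the stages, 832 for Adult against Infant and 507 of 783 for Sperm against Adult. Mean numbers detected per library (6, 11, 18.3, 14.8 and 9.75 in Infant, Pre-puber, Puber, Adult and Sperm) were 3.67, 6, 12.7 and 10.5 in the first 4 after thinning. They were 8.67, 24, 30.3, 25.2 and 16.2 at 1 read, and at 10 reads 5 in Infant, 13.3 in Puber, 10 in Adult and 6.25 in Sperm. With all entries as the total, the mean share moved from 40.5 to 29.9 ppm in Infant, 1041 to 762 in Adult and 207 to 153 in Sperm. The cause of these moves was not tested, beyond the smaller numbers tested or sampled given here. Dropping TMM moved the median log2 fold change of all miRNAs from -0.14 to 0.82 for Adult against Infant and from 0.06 to -1.61 for Sperm against Adult. Depth limits the sperm libraries most, where 3 reads equal 1.33 to 2.02 CPM. No paired analysis was possible because the groups compared share fewer than 2 replicate numbers.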
